A study of Mus musculus with 2 samples.

Results

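The miRNA genes named Mir6896 to Mir7094 are entries of the mouse miRNA catalogue, most of them candidate mirtrons, hairpins cut out of pre-mRNA by splicing. Members were all rows of the count tables whose gene symbol is Mir with a number from that of Mir6896 to that of Mir7094, with or without a letter or copy suffix, whatever their counts. The rule found 178 of 1973 gene rows. The study sequenced small RNA (inserts below 30 nt, per the labels) from facial prominences, outgrowths of the embryonic head from which the face is built. The 2 libraries are biological replicates of 1 group, healthy B6NCrl mouse embryos at day 10.5, and each is a pool of male and female embryos. The labels name no mutation or treatment. Replicate 1 pooled 69 embryos and replicate 2 pooled 51, so no value belongs to a single embryo. There is no second condition, and the comparisons are between the hairpins, between them and the other miRNA genes, and between the 2 pools.

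A canonical miRNA precursor is released from its primary transcript by the nuclease Drosha and then cut by Dicer. A mirtron is a short intron whose spliced and debranched RNA folds into a hairpin that Dicer can cut directly, so splice sites take the place of the Drosha cuts. In a tailed mirtron only one end of the hairpin is a splice site, and the rest of the intron is trimmed off. Known mammalian mirtrons include Mir877 in Abcf1 and Mir1224 in Vwa5b2.

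The sequences of 3 hairpins that fill an intron, of 3 that end a longer intron and of the known mirtron Mir877 show what the members share. They are given 5′ to 3′ from GENCODE M21 (GRCm38), and capitals mark the first and last bases of the intron where the hairpin includes them. Mir6944 lies at chr13:55477681-55477776 (minus strand), Mir7018 at chr4:137538286-137538370 (plus), Mir6958 at chr15:89185465-89185537 (minus), Mir6951 at chr15:38490473-38490547 (minus), Mir6935 at chr11:120347350-120347413 (minus), Mir6975 at chr17:35244075-35244135 (plus) and Mir877 at chr17:35960730-35960814 (minus).
Mir6944: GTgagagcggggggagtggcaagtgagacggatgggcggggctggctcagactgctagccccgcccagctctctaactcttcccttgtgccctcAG
Mir7018: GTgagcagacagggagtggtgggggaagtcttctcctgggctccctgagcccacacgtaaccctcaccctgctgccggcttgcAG
Mir6958: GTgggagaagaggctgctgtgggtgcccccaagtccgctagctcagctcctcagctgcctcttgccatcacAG
Mir6951: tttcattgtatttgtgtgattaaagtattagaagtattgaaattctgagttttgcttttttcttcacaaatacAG
Mir6935: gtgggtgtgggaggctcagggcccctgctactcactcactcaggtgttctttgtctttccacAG
Mir6975: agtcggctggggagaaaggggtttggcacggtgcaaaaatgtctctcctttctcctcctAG
Mir877: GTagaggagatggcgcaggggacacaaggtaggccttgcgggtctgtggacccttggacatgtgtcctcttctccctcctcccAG

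The mature sequences of the 3p arm are shown because most of them run to the splice acceptor. They are given from RefSeq (GRCm38.p6), 5′ to 3′, with the seed (bases 2 to 8) in capitals, and Mir6951 is named only. Mir7018 and Mir7068 are shown together because their 3p arms share a seed.
mmu-miR-6944-3p: uAACUCUUcccuugugcccucag
mmu-miR-6944-5p: gUGAGAGCggggggaguggcaag
mmu-miR-7018-3p: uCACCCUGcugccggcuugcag
mmu-miR-7068-3p: uCACCCUGgacugacucucag
mmu-miR-6958-3p: uCAGCUGCcucuugccaucacag
mmu-miR-6935-3p: uGUUCUUUgucuuuccacag
mmu-miR-6975-3p: uCUCUCCUuucuccuccuag
mmu-miR-6900-3p: uGGUGAUGggcucucuuguag

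The hairpins of the members ended at splice acceptors, and few of them filled a whole intron. In GENCODE M21, 166 of 178 had their 3′ end within 5 nt of the 3′ end of an intron on the same strand, and in 165 of them the 2 ends were the same base. Over all 1894 annotated rows, members included, 10.6% had such an end. Of the 178 members, 15 also started within 5 nt of the intron's first base, the form of a classical mirtron. Over all 1894 annotated rows, members included, 23 (1.21%) had this form, and 8 of these were outside the range. The other 151 of the 166 lay at the 3′ end of a longer intron, the arrangement called a 5′-tailed mirtron. Their median distance from the intron's first base to the hairpin was 421 nt (range 7 to 36205). That distance was at most 30 nt in 25 of the 151. The name of short-intron hairpins held for a minority. In introns of up to 120 nt, a limit set after the lengths were seen, lay 51 members, and the median intron was 433 nt (range 66 to 36269). Of the remaining 12 members, 4 started at an intron's first base and ended before its last, 6 ran 6 or 7 nt past an acceptor into the exon, Mir7036b lay inside a long intron of Add1 and over an exon of another transcript, and Mir7025 started inside an exon of Pdgfra.

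**Figure D1:**
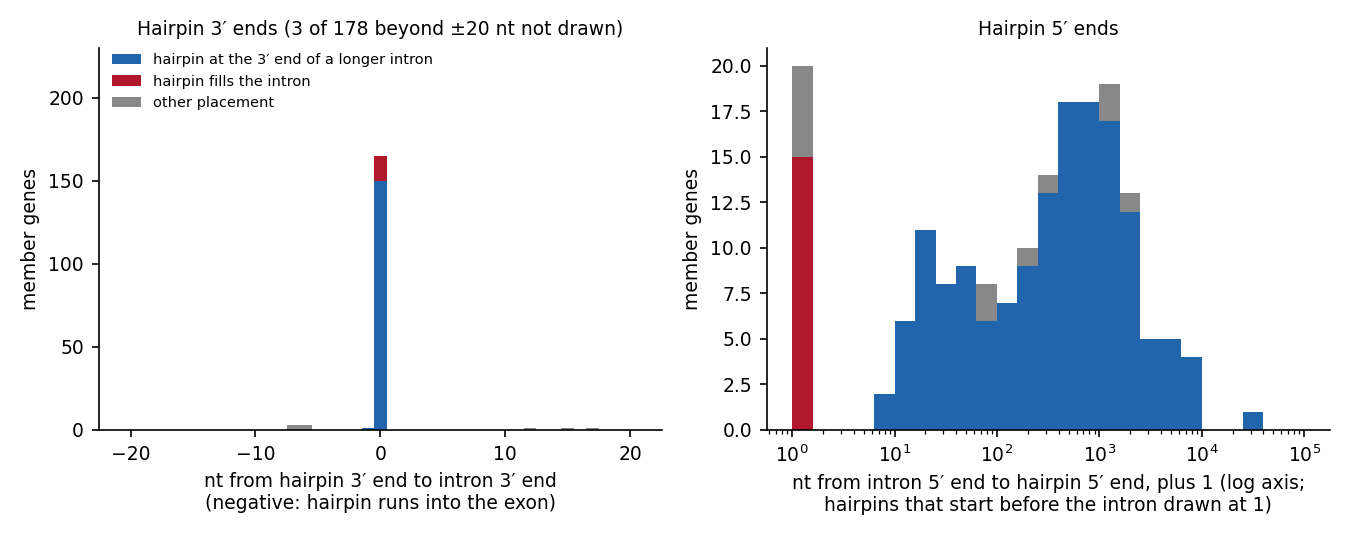
Position of the 178 hairpins against annotated introns: nt from the hairpin's 3′ end to the intron's 3′ end (left) and from the intron's 5′ end to the hairpin's 5′ end (right, log axis). The bar at 0 on the left holds 165 members, and the hairpins that fill their intron form the red bar at the left edge of the right panel.

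The members sat in 174 different host genes on 19 chromosomes, and 177 hosts of the 178 members were protein-coding. Only Srebf1, Skiv2l, Cmip and Arap3 held 2 members each, and every other host held 1. In 139 members the hairpin overlapped no annotated exon. Of the 39 that did, 15 overlapped only transcripts annotated with a retained intron and 19 overlapped an exon of a protein-coding transcript. A stretch of 20 bases was shared with another miRNA gene by 2 of 178 members (Mir6970 and Mir7065). Among numbered Mir genes outside the range it was 178 of 474 below number 1000, 32 of 304 from there up to the members and 11 of 95 above them.

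Mature sequences of the 3p arm were rich in pyrimidines (C or U), and those of the 5p arm were rich in G. A total of 163 members matched a RefSeq entry, with 155 mature sequences of the 3p arm and 157 of the 5p arm. The 3p sequences had a median of 71.4% C or U, against 54.5% in 554 other RefSeq mouse miRNAs, and 121 of 155 (78.1%) ended in AG, against 11.0%. Of the 146 whose hairpin ended at an acceptor, 115 ended on the hairpin's last base. The 5p sequences were the reverse, with a median of 31.8% C or U and 45.5% G, against 50% and 27.3% in 550 others. As background, the stretch before a splice acceptor is rich in pyrimidines in most introns. The hairpins had a median length of 66 nt (range 52 to 137) and 57.8% G or C, against 94 nt and 50% in other rows. Numbered Mir genes outside the range had medians of 85 nt and 46.7% below number 1000. They had 87 nt and 52.3% from there up to the members, and 64 nt and 54.8% above them. Hairpins outside the range that ended an intron without filling it had 64 nt and 56.25%, near the members. Mir6951, at 25.3% G or C, was the lowest of all members. The minimum folding energy computed with RNAfold had a median of -0.40 kcal/mol per nt in members and -0.37 in other rows. Among numbered Mir genes outside the range it was -0.42 below number 1000, -0.40 from there up to the members and -0.41 above them.

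**Figure D2:**
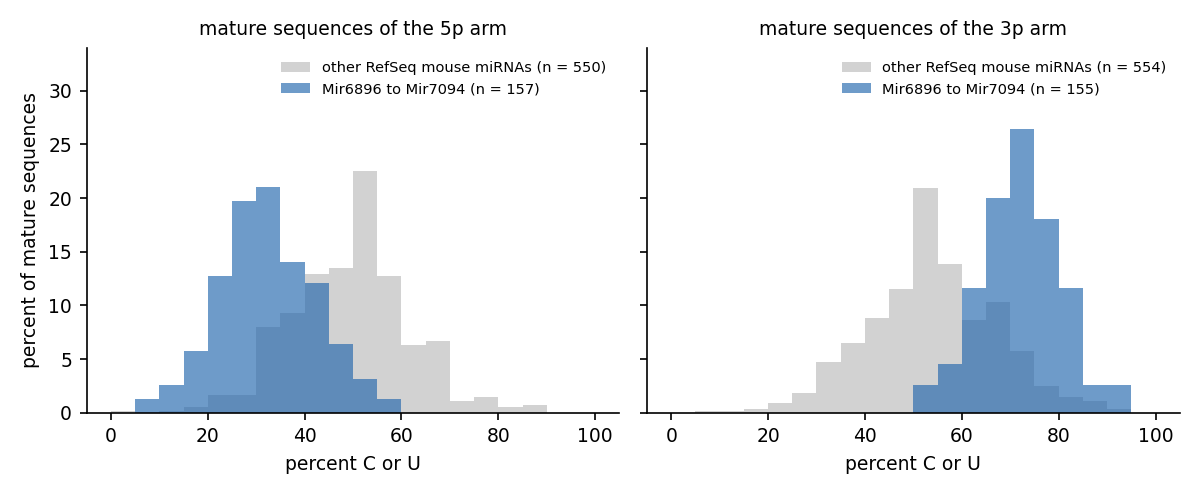
Percent C or U in mature sequences of the 5p arm (left) and the 3p arm (right), for members (blue) and other RefSeq mouse miRNAs (grey), as percent of each set. The members lie to the left of the others in the 5p arm and to the right in the 3p arm.

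The 312 mature sequences of the members had 287 different seeds. In all, 21 seeds occurred in more than 1 member, and 45 members had such a seed. The seed of Mir7018 and Mir7068 was also that of Mir7023, which had 0 counts in both libraries. Of the members, 48 had a seed also found in a RefSeq mouse miRNA outside the range, among them the 5p arm of Mir6958 with an arm of Mir30c. The same counts were not made for other RefSeq miRNAs, so no excess of shared seeds is claimed. Here and in the other comparisons the range goes by gene symbol. Gm27740 and Gm27775, whose mature sequences are named miR-6967, thus count as outside it. The tables count a hairpin's arms together, so no count belongs to a seed.

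The libraries held 2853511 and 3517226 counts on the strand of the miRNA genes, so 1 count is 0.350 CPM (counts scaled to 1000000 of that total) in replicate 1 and 0.284 CPM in replicate 2. A count of 0 allows up to 1.05 and 0.853 CPM (3 counts). Markers of the tissue were present. The 5 mesenchymal genes summed to 24651 and 21977 CPM in replicates 1 and 2, and the 7 epithelial genes to 28691 and 23965 CPM. Mir126a of endothelium had 31642 and 34369 CPM and the 2 erythroid genes 400 and 180 CPM. The 5 matched neuronal genes had 42.4 and 37.2 CPM, with 1 of 5 reaching 10 counts in each library, and the 4 matched muscle genes 26.3 and 10.8 CPM, with 1 of 4 reaching it and Mir133a-1 and Mir133a-2 at 0. Reads mapping to several places (27.6% and 25.9% of reads) are in no gene's count, and their part in the low neuronal and muscle levels was not tested. Intervals below cover counting error only and treat each read as independent. Amplified reads are not independent molecules, so the intervals can be too narrow.

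The members together made up 0.0214% of counts in replicate 1 and 0.0212% in replicate 2. They summed to 612 and 745 counts, or 214 CPM (95% exact Clopper-Pearson interval 198 to 232) and 212 CPM (197 to 228). The mean was 213 ± 1.88 CPM (SD, n = 2), and the difference between the pools lay within the counting intervals. Reads were almost all on the hairpin's own strand, with 2 counts on the opposite strand in replicate 1 and 1 in replicate 2. Over both libraries 99.8% of 1360 counts were on the hairpin's strand (99.4% to 99.9%), against 99.7% for genes with Mir numbers below 1000 and 99.0% for those with numbers above the members. Mir7071 and Mir6998 gave the opposite-strand counts, and 0 members reached 10 of them in each library. Host transcripts run on the same strand, so reads of mature miRNA and of other pieces of the intron cannot be told apart in the tables.

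Most members were present at a trace. At least 1 count was found for 127 of 178 (71.3%), where all gene rows gave 37.6%. Mir numbers below 1000 gave 77.4%, those from there up to the members 46.4% and those above the members 50.5%. At least 10 counts in each library, the minimum used here for detection, were found for 9 (5.06%), where all gene rows gave 19.1%. All these shares are descriptions of these libraries, with no test. Of the 127, 79 had counts in both libraries, 21 only in replicate 1 and 27 only in replicate 2, and 51 members had none. The median over both libraries together was 2 counts, and 4 among members with a count, against 25 among all rows with a count. The count of detected members depends on its minimum: it was 24 with a minimum of 5 counts, 38 with a minimum of 3 and 1 with a minimum of 20. Without replicate 1, that is with 10 counts in replicate 2 alone, it was 18.

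**Figure D3:**
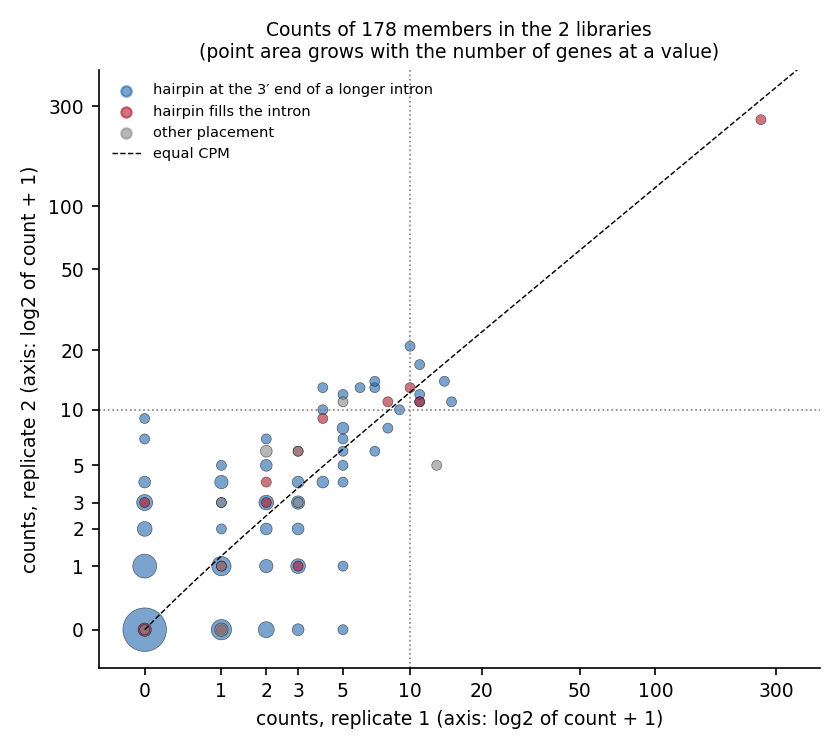
Counts of each member in replicate 1 (x) and replicate 2 (y), drawn as log2 of the count plus 1, with the point area growing with the number of members at a value. Dotted lines mark the minimum of 10 counts: 9 members lie on or beyond both, and Mir6944 (261 and 259 counts) stands alone at the upper right.

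Among hairpins that fill an intron, Mir6944 carried most of the reads. It fills a 96-nt intron of Dbn1, the gene of drebrin, an actin-binding protein of neurons (ENSMUSG00000098341.1). It had 261 counts, or 91.5 CPM (exact 95% Poisson interval 80.7 to 103), in replicate 1 and 259 counts, or 73.6 CPM (64.9 to 83.2), in replicate 2, a mean of 82.6 ± 12.6 CPM (SD, n = 2). Replicate 1 was the higher, and the 2 intervals overlapped slightly. Mir6944 was 42.6% of all member counts in replicate 1 and 34.8% in replicate 2, 17.4 times the next member, and ranked 220 of 1973 rows by mean CPM. Mir7018, in an 85-nt intron of Hspg2, the gene of the basement membrane proteoglycan perlecan, had 10 and 13 counts (3.50 and 3.70 CPM). Mir6958, in a 73-nt intron of Dennd6b, had 11 counts in each library (3.85 and 3.13 CPM). The hairpin of Mir6958 overlaps exons of transcripts annotated with a retained intron or with nonsense-mediated decay. Neither gene's levels differed between the pools by more than their counting intervals. Mir7068, in a 74-nt intron of Cherp, stayed just under the minimum with 8 and 11 counts, and it overlaps a transcript annotated with a retained intron. In all, 3 of the 15 were detected and 12 of 15 had a count, and their sum was 99.3 ± 11.3 CPM (107 and 91.3 CPM). Mir6923 in Myh3, Mir6974 in Lta and Mir7088 in Mst1 had no count, and the rest had at most 9 counts in a library.

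Hairpins at the 3′ end of a longer intron were many and low. The 151 summed to 273 and 383 counts, or 95.7 and 109 CPM (mean 102 ± 9.35 CPM), a sum that differed from that of the 15 intron-filling hairpins by less than the spread between the libraries. Of the 151, 6 were detected and 104 had a count. Mir6951, in an intron of Azin1, a regulator of polyamine levels, had 10 and 21 counts (3.50 and 5.97 CPM). Mir6900, in Ndufa10 of mitochondrial complex I, had 14 counts in each library (4.91 and 3.98 CPM). Mir6935, in Actg1, the gene of gamma-actin, had 11 and 17 counts (3.85 and 4.83 CPM), and its 142-nt intron was the shortest among these 6. Mir6935 also overlaps a transcript annotated with a retained intron.

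The other 3 detected hairpins of this kind lay in Ddx39b, Dock6 and Uggt1. Mir6975, in Ddx39b, an RNA helicase of splicing and export, had 15 and 11 counts (5.26 and 3.13 CPM). Mir7083, in Dock6, had 11 and 12 counts (3.85 and 3.41 CPM). Mir6897, in Uggt1, a folding sensor of the endoplasmic reticulum, had 11 counts in each library (3.85 and 3.13 CPM). In each of these 6 genes the exact Poisson intervals of the pools overlapped, and no order among the 8 detected members below Mir6944 can be given, since their means ran only from 3.49 to 4.74 CPM. Mir7069, in Farsa, a subunit of phenylalanyl-tRNA synthetase, ranked 10 among members by mean CPM but missed the minimum in replicate 1 (7 and 14 counts). Mir6991 (9 and 10 counts) and Mir7089, in the cell-cycle phosphatase gene Cdc25a (8 and 8 counts), lay just outside the minimum with Mir7068, while Mir6897, Mir7018 and Mir6951 lay just inside.

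**Figure D4:**
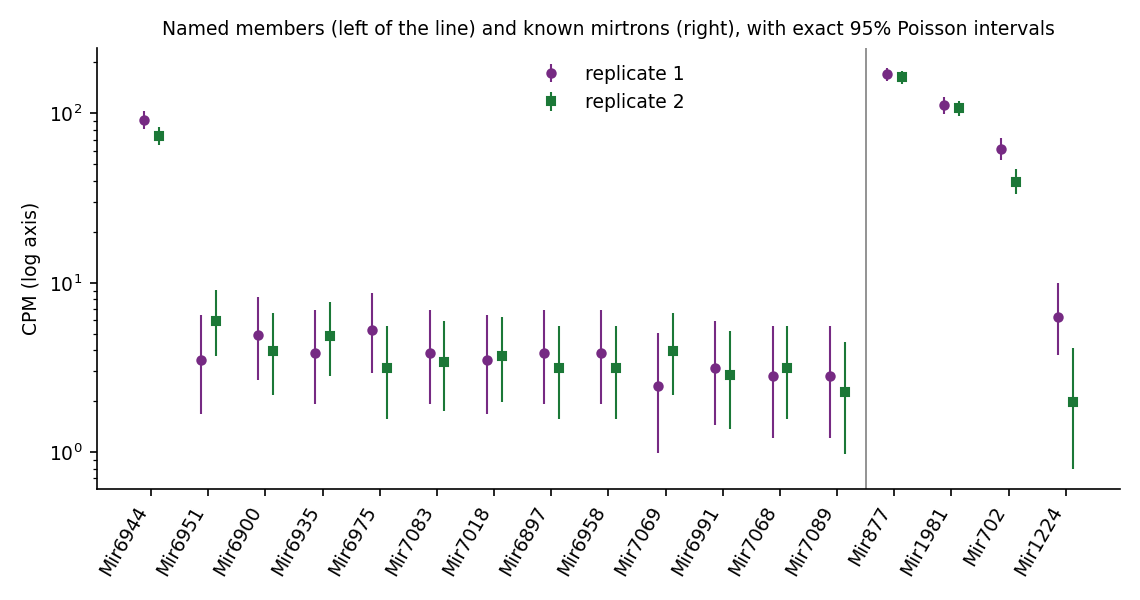
CPM (log axis) of the named members and of the known mirtrons Mir877, Mir1981, Mir702 and Mir1224 in replicate 1 (circles) and replicate 2 (squares), with exact 95% Poisson intervals. Mir6944 lies between Mir1981 and Mir702, and the points of the other members lie below 6 CPM.

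Hairpins that end an intron without filling it were also counted by intron length. Of 34 such hairpins in introns of up to 120 nt, 21 had a count and 0 were detected (15.8 and 21.3 CPM in sum). Of 117 in longer introns, 83 had a count and 6 were detected (79.9 and 87.6 CPM in sum). These counts of genes have no test, so no relation to length is given. Where a host held 2 members, both were low. Skiv2l held Mir6970 (3 and 1 counts) and Mir6971 (7 and 6), Srebf1 held Mir6921 (0 and 0) and Mir6922 (3 and 1), and Cmip held Mir7077 (0 and 1) and Mir7078 (1 and 0). Arap3 held Mir6980 (0 and 0) and Mir6981 (0 and 3).

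Members that neither filled an intron nor ended within 5 nt of its 3′ end were also low. The 4 that started at a donor site and ended inside the intron summed to 7 and 18 counts. Mir7036b, in Add1, had 5 and 11. Mir7025, named after its values were seen, overlaps an exon and intron of Pdgfra, the receptor gene that marks craniofacial mesenchyme, and had 13 and 5 counts (4.56 and 1.42 CPM). It was the only member besides Mir6944 with an unadjusted p below 0.05 in the comparison of the pools, and it did not pass after adjustment (adjusted p = 0.0713, exact binomial test).

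Known mirtrons outside the number range gave a scale for these levels. Mir877 had 485 and 573 counts (170 and 163 CPM) and Mir1981, which fills an intron of Marc2, had 318 and 376 (111 and 107 CPM). Mir702 in Plod3 had 176 and 139 (61.7 and 39.5 CPM), and Mir1224 had 18 and 7 (6.31 and 1.99 CPM). Mir6944 thus lay below Mir877 and Mir1981 and above Mir702 and Mir1224 in both libraries, though its interval overlapped that of Mir1981 in replicate 1. The annotated hairpin of Mir702 does not match its intron: it starts 9 nt before it, inside an exon. By the exact binomial test described below, Mir702 and Mir1224 were lower in replicate 2 (adjusted p = 3.18e-04 and 0.0219). Both calls were lost in edgeR's exact test with a common dispersion (adjusted p = 1.00 and 0.740). The edgeR dispersion came from the same 2 libraries, so that test cannot decide on either gene. Outside the range, 8 rows filled an annotated intron, with a sum of 435 and 444 CPM over all 8. Of these 8 rows, 3 were detected. The fraction of rows detected was 60.5% for Mir numbers below 1000, 19.7% for numbers from there up to the members, 9.47% for numbers above the members and 5.06% for the members. Those with counts but not detected were 16.9%, 26.6%, 41.1% and 66.3% in the same order. Numbers follow the order of registration, so the age of an entry and the kind of locus cannot be told apart in these classes.

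**Figure D5:**
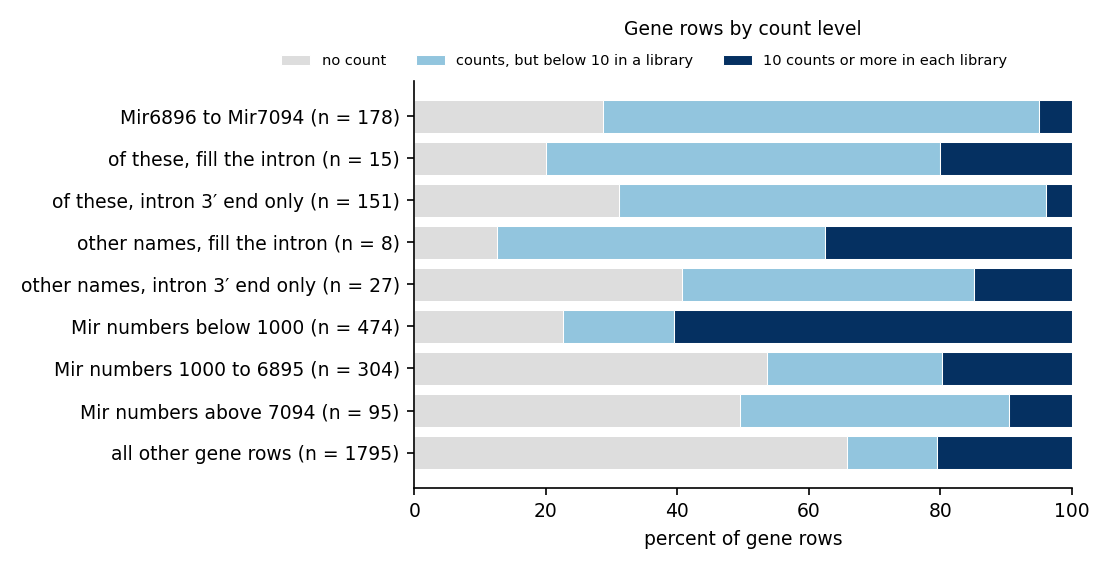
Percent of gene rows with no count (grey), with counts but fewer than 10 in a library (light blue) and with 10 or more in each library (dark blue), for members and other classes of miRNA gene. The light blue share is 66.3% in the members and 13.8% in all other gene rows.

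Between the pools, 1 member passed the test, Mir6944. The two-sided exact binomial test of replicate 2 against replicate 1, with Benjamini-Hochberg adjustment over all 449 genes with at least 10 counts in total, covered 27 members and called 1, where it called 40.3% of all genes tested. That test compares the 2 libraries, not conditions. The other 26 members tested had 10 to 31 counts in total, a depth at which small differences were not detectable. The called member was Mir6944, lower in replicate 2 with a log2 ratio of -0.31 (adjusted p = 0.0347). The call was lost with TMM library sizes (adjusted p = 0.0568) and in an edgeR exact test with a common dispersion from the 2 libraries (adjusted p = 1.00), which called 1 of 449 genes in all and gave 0 members an unadjusted p below 0.05. The dispersion of that edgeR test was estimated from the differences between the same 2 libraries. It left little room for calls, so the test cannot decide on Mir6944. The median log2 ratio was 0.13 in the 27 members and 0.01 in the 449 genes.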

How the data were processed

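Each deposited table gives the raw counts of 1 library over miRNA genes, on mm10 with GENCODE M4, per the text files deposited beside them. The aligner is not given in the sources used here, nor are its settings. Each of the 1973 rows holds a total and 2 columns that add up to it, which were read as the counts on the gene's strand and on the opposite strand. The gene-strand count entered every value, and 4 summary lines stayed out of totals (58.2% and 59.3% of reads). Symbols, introns and hairpins were taken from GENCODE M21 (GRCm38, the build called mm10) by identifier without version, with 1894 rows matched and 79 not. Each of those 79 had at most 3 counts. An intron was any gap between exons of a transcript that is not a miRNA. Mature sequences came from RefSeq. Log2 ratios used a pseudocount of 0.5 CPM. Each SD is over the 2 libraries.

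Tools were scipy 1.17.1, RNAfold 2.7.2 and edgeR 4.0.16 (TMM factors 1.01 and 0.993, biological coefficient of variation 0.178). The exact binomial test was checked on simulated counts that held counting error and set changes only. Variation between pools was not simulated, so the check does not cover it. Named genes are members detected, the 10 highest, any called, any with 10 opposite-strand counts in each library, the 3 nearest the minimum on either side and 4 known mirtrons. Members named for their host, placement or partner lie outside that rule, picked once their values were known. Members and lists were chosen with earlier results of these data known. Alternatives were other minimums, strands, library sizes, pseudocounts, end tolerances and tests, and leaving out each library, shared-sequence members or the highest member.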

Additional observations from a re-analysis of the deposited data

How the results depend on the processing

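Detected members numbered 9, and 38, 24 and 1 with minimums of 3, 5 and 20 counts in each library, 3 among hairpins that fill an intron, and between 10 and 18 with 1 library left out. Members with a count numbered 127, 12 among those that fill an intron, and 100 to 106 with 1 library left out. The summed level of 213 CPM became 208 with unstranded counts, 99.3 for hairpins that fill an intron, 87.9 when scaled to all reads in the table, 286 with Mir335 and Mir17 out of the total and 131 without Mir6944. With 1 library left out it was 212 to 214 CPM. Members past the exact binomial test numbered 1, and 0 with TMM sizes, 0 with edgeR's exact test (also 0 at an unadjusted p below 0.05), and 2 (Mir6944 and Mir7025) when scaled to all reads. With every gene that had a count tested, Mir6944 did not pass (adjusted p = 0.0570) and Mir7064 did, so the number stayed at 1 with a different gene. The adjusted p of Mir6944 ranged from 0.0172 to 1.00 over these alternatives. The edgeR test took its dispersion from the same 2 libraries, so its lack of member calls decides nothing. Hairpins filling an intron numbered 14 and 18 with tolerances of 2 and 10 nt, and those ending at an acceptor 165 and 173. Both of the latter alternatives were chosen after seeing the data. No paired analysis was possible because the series holds 1 group. Depth limits the values of single members, since 100 of 178 had 1 to 9 counts in both libraries together.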

Other observations

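Of the members with a count, 21 were seen only in replicate 1 and 27 only in replicate 2. Those with the highest totals among them were Mir7064, Mir7049 and Mir6932. Mir7064, in an intron of Cars, a gene of cysteinyl-tRNA synthetase, had 0 counts in replicate 1 and 9 in replicate 2. Mir7049, in Pak4, had 0 and 7, and Mir6932, in Helz, had 5 and 0. These genes fell under the minimum of 10 counts for the test and were picked once their values were known.

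Outside the number range, 27 miRNA genes also ended within 5 nt of an intron's 3′ end without filling it. They include Gm27740 and Gm27775, whose mature sequences are named miR-6967. Of the 27 hairpins, 13 ended in AG, against 150 of the 151 members at such a place. In all, 4 of the 27 were detected. Mir382, in the long non-coding host Mirg of the Dlk1-Dio3 region, had 9673 and 13240 counts, while Mir3064 in Ddx5 had 20 and 28, Mir3097 in Rgs12 had 23 and 22 and Mir3076 in Tkt had 10 and 19. The hairpins of Mir382 (2 nt), Mir3064 and Mir3076 (1 nt each) ran past the intron's end into an exon, while Mir3097 ended on its last base. Mir3102, which fills an intron of Arhgef17, had 411 and 594 counts.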
